A study of Mus musculus with 36 samples.

Results

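The Rab GTPases were examined as 59 protein-coding genes of mouse muscle satellite cells, out of 55471 gene identifiers measured, of which 21974 are protein-coding. A gene was taken as a member where its symbol is Rab, a number and at most a letter and a further digit, so that Rab-like and Rab-interacting genes are left out. The rule reads the symbol alone, and the family was chosen with earlier results of these data known. By the function each is known for, 16 members serve the endoplasmic reticulum and Golgi, 7 early endosomes, 6 late endosomes and lysosomes, 14 recycling and delivery to the cell surface, 11 regulated secretion and lysosome-related organelles, and 5 the cilium or other tasks. Of the 59, 50 passed the filter on low values in 1 table and 48 in the other, with 47 passing in both and 8 in neither. The 8 were Rab6b, Rab9b, Rab17, Rab19, Rab25, Rab37, Rab39 and Rab3c.

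Rab proteins are small GTPases that give membranes their identity. A guanine nucleotide exchange factor (GEF) loads a Rab with GTP on a membrane, where it recruits effectors such as tethers and motor adaptors, and a GTPase-activating protein (GAP) switches it off. GDI then extracts the prenylated Rab from the membrane for another round. Satellite cells, which renew skeletal muscle, are small and quiescent in uninjured muscle, and after injury they enlarge, divide and become myoblasts.

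RNA was sequenced in bulk from sorted C57BL/6 satellite cells in 36 libraries, given as TPM, the length-corrected share of a library that each gene takes, scaled to 1000000. A table of 21 libraries compares Pax7-CreER;ROSA26YFP mice, here control, with Pax7-CreER;ROSA26YFP;Drp1fl/fl mice, here KO, all aged 3 months. Both genotypes carry the tamoxifen-inducible Cre that Pax7 drives in satellite cells and the YFP reporter, and both were given tamoxifen, so they differ by the floxed alleles of Drp1, the dynamin-like GTPase that divides mitochondria (gene Dnm1l). They were taken from uninjured muscle (QSC, n = 3 control and 3 KO), 1 day after cardiotoxin injury (1 DPI, n = 4 and 4) and 3 days after it (3 DPI, n = 3 and 4). A second table of 15 libraries holds WT mice without a stated reporter, aged 3 months (young) in QSC and at 1 DPI and 24 months (old) in QSC, at 1 DPI and at 3 DPI, with n = 3 in each group. Cells of the control and KO mice were sorted as YFP+ in QSC and at 1 DPI and as CD34-YFP+ at 3 DPI, so the gate changes with time. The sort of the WT cells is not described separately.

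Of 12 satellite cell markers, 11 or 12 reached 1 TPM in every library, a count that does not measure purity. Their summed level fell after injury. In control and KO it was 5882 to 7924 TPM in QSC, 1531 to 3090 at 1 DPI and 1324 to 1651 at 3 DPI. In young cells it was 5920 to 7102 and then 3005 to 3714 TPM. In old cells it was 4046 to 6789, then 2282 to 3343, then 938 to 1223 TPM. Dnm1l was at 30.9 to 39.5 TPM in control and 32.7 to 43.4 in KO in QSC, at 43.9 to 52.9 and 28.99 to 41.0 at 1 DPI, and at 61.5 to 69.8 and 22.2 to 37.5 at 3 DPI. It fell in KO at 3 DPI by 1.21 on the log2 scale (limma adjusted p = 0.00115). It did not pass at 1 DPI (adjusted p = 0.699), where the libraries are apart, or in QSC (adjusted p = 1.0), where they overlap. On the mean of the 3 states, added after the separate tests were seen, the difference was -0.56 (limma adjusted p = 0.00873). A level over the whole gene does not show whether the floxed exons were lost. Some libraries stood apart in markers of macrophages and monocytes, summed over 17 genes. The sum was 39.3 to 131 TPM in control, KO and young QSC libraries, 113 to 557 in old QSC, 492 to 5664 in control and 687 to 10850 in KO at 1 DPI, 220 to 967 in young and old at 1 DPI, 130 to 455 in control and KO at 3 DPI, and 7531 to 8752 in old at 3 DPI. Neutrophil markers, summed over 8 genes, ranged from 337 to 5027 TPM in control and KO at 1 DPI and stood at 4639 TPM in old QSC replicate 1. Markers of fibro-adipogenic progenitors, summed over 7 genes, fell with each step. They went from 1380 to 1890 to 468 to 924 to 94.1 to 192 TPM in control and KO. In old cells they went from 1168 to 1411 to 392 to 633 to 153 to 306 TPM. Erythroid markers reached 1785 TPM in control at 1 DPI and 1698 in old QSC. The part of these cells in the injury steps was not tested. Sequencing depth is unknown, since TPM do not keep it, and nothing in the labels says whether libraries of a group came from separate animals, so p-values measure the spread between libraries.

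The promoters of 3 members described at length are shown, from 250 bases before to 50 after the RefSeq start in GRCm38.p6. They are Rab35 (chr5:115631737-115632036, plus strand), the member that differed between genotypes, and Rab8a (chr8:72160950-72161249, plus strand) and Rab8b (chr9:66919656-66919955, minus strand), a pair whose ratio rose after injury. Capitals mark matches to GGGCGG, the core of the Sp1 site, or to CCAAT, the core of the NF-Y site, on either strand.
Rab35: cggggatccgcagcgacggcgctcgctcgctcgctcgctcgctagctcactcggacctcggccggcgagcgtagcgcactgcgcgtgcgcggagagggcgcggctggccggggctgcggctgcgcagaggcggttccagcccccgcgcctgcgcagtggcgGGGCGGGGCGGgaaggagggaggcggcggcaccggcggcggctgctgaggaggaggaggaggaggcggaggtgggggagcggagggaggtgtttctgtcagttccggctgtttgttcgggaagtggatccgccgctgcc
Rab8a: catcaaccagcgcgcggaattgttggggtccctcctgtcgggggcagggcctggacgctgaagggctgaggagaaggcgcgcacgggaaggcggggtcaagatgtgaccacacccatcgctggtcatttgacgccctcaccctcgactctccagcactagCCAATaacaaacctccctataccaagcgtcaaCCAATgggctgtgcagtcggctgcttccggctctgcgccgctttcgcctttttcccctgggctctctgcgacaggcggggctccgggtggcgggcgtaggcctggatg
Rab8b: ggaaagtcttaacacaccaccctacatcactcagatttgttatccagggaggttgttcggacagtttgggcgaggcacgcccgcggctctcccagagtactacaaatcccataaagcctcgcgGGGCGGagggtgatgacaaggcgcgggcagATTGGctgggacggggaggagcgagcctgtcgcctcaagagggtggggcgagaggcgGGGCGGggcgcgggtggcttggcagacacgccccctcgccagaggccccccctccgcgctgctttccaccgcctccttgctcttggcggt
Rab35 holds 2 GGGCGG matches, which share a base, and none to CCAAT. Rab8a holds 2 CCAAT matches and none to GGGCGG, while Rab8b holds 2 GGGCGG matches and 1 to CCAAT. Among 48 member promoters in the table, 70.8% hold GGGCGG, against 35.9% of all 27025 promoters. CCAAT was found in 47.9% of member promoters and 37.9% of all. The median GC content was 61.6% for members and 52.7% for all promoters, and the match counts were not corrected for it. The E-box letters CACGTG were found in 10.4% of member and 7.24% of all promoters, and CAGCTG, an E-box form that myogenic factors bind, in 25% and 16.1%. These 3 promoters hold neither E-box. Of the other letters searched on both strands, TGACTCA was in 4.17% of member and 5.17% of all promoters, TGACGTCA in 4.17% and 1.88%, TATAAA in 8.33% and 14.2%, CCGGAAG in 10.4% and 9.12%, and the NRF1 motif in 0.0% and 0.977%.

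Members differed widely in level. In the control and KO table the mean over all libraries was at least 100 TPM for 7 members, 10 to 100 for 20, 1 to 10 for 17 and under 1 TPM for 15. Values of the young and old table carry a factor per gene, so members are not ranked there, and levels are compared within a table only. Rab14, which works between the Golgi and endosomes, had the highest mean, 309 TPM, Rab7, the late endosome and lysosome Rab, 295 TPM, and Rab1a, of transport from the endoplasmic reticulum to the Golgi, 253 TPM. Rab18, of the endoplasmic reticulum and lipid droplets, had 226 TPM and Rab11a, of recycling endosomes, 186 TPM. By library, Rab14 held 339.8, 359 and 345 TPM in control QSC, 302, 315, 327 and 294 at 1 DPI and 259, 279.7 and 339.9 at 3 DPI, and 395, 404 and 332, then 230.5, 258, 298 and 292, then 256, 277, 339 and 252 in KO. It held 347, 435 and 383 and then 312, 334 and 275 TPM in young cells and 334, 411 and 421, then 344, 342 and 297, then 152, 286 and 307 in old cells.

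Rab7 held 298, 299 and 327 TPM in control QSC, 316, 289 and 357 in KO QSC, 286, 424, 295 and 278 in KO at 1 DPI and 234, 248, 267 and 265 at 3 DPI, where replicate 2 of KO at 1 DPI stands apart. In the other table it held 330.01, 324 and 333 and then 245, 296 and 278 TPM in young cells and 188, 277 and 289.6, then 289.5, 322 and 239, then 202, 215 and 304 in old cells. Rab11a held 207, 185, 206 and 186 TPM in control at 1 DPI and 155, 208 and 155 at 3 DPI, 215, 281, 189.7 and 187 and 155, 183, 161 and 179 in KO, 192, 167 and 175 and 207, 191 and 202 in young cells in QSC and at 1 DPI, and 139, 125 and 195, 174, 214 and 222 and 152, 153 and 211 in old cells from QSC to 3 DPI. All members together took 0.26% of TPM in control QSC, 0.24% at 1 DPI and 0.22% at 3 DPI.

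Between genotypes, Rab35 was the member that differed. Rab35 (ENSMUSG00000029518, GRCm38 chromosome 5, 115631908 to 115647736, plus strand, the whole gene) returns cargo such as cadherins from endosomes to the plasma membrane and acts in the last step of cell division. Its level in QSC was 14.96, 14.4 and 12.6 TPM in control and 6.81, 8.37 and 8.75 in KO. A day after injury it was 11.2, 9.73, 14.02 and 14.7 TPM in control and 4.93, 6.501, 7.86 and 4.05 in KO. By 3 DPI it was 15.9, 23.1 and 16.8 TPM in control and 6.92, 3.86, 5.97 and 2.86 in KO. In each state every KO library lay below every control library, and the highest of the 11 KO libraries, at 8.75 TPM, lay below the lowest of the 10 control libraries, at 9.73 TPM.

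At 3 DPI the mean was 4.90 ± 1.87 TPM in KO (SD, n = 4) and 18.6 ± 3.94 in control (n = 3), which is -1.77 on the scale of log2(TPM + 1) with an SE of 0.27 (limma, adjusted p = 0.00151 over 18343 genes). Rab35 was 1 of 50 members called at 3 DPI, where a call is an adjusted p under 0.05 and the background was 0.283% of all genes. Rab35 did not pass at 1 DPI, at -0.99 (SE 0.25, limma adjusted p = 0.186), or in QSC, at -0.74 (SE 0.29, adjusted p = 0.801). No member was called in QSC, where the background was 0.213%, or at 1 DPI, where it was 0.278%, by limma. In each of these states 2 members had an unadjusted p under 0.05, beside 4.74% and 5.25% of all genes. The mean over the 3 states, added after the separate tests were seen, gave -1.17 (SE 0.16, limma adjusted p = 0.000181), with Rab35 the 1 member called and a background of 0.452%. At 3 DPI the call is lost when those groups alone enter the fit (adjusted p = 0.0938), and it was kept under the other alternatives run, with adjusted p from 0.000566 to 0.0252.

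**Figure D1:**
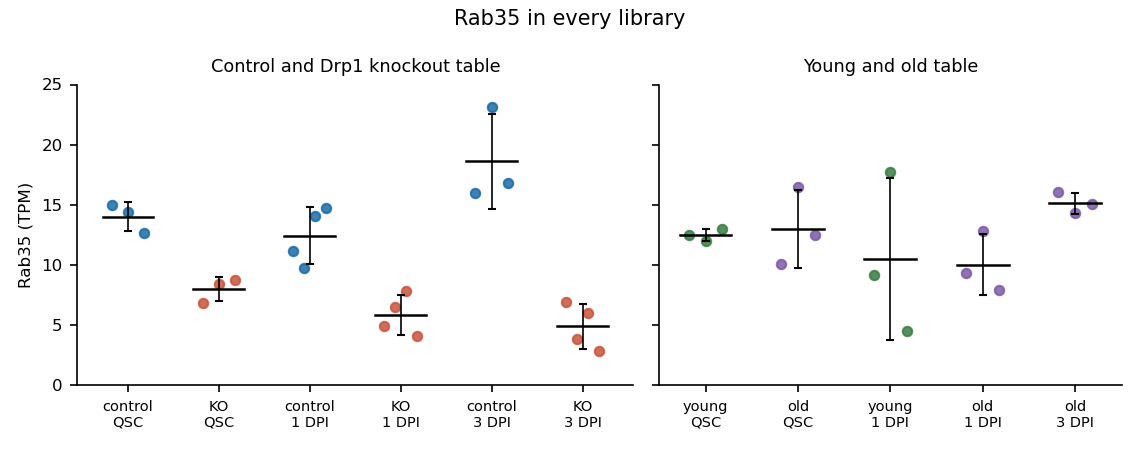
Rab35 in TPM (vertical axis from 0) in each library by group, with the control and KO table on the left and the young and old table on the right; points are libraries, lines are means and bars are SD. The 11 KO libraries lie at or below 8.75 TPM and the 10 control libraries at or above 9.73 TPM.

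Of all 18343 tested genes, 24 were lower in KO with the libraries apart in all 3 states, 0.131%, and Rab35 was the 1 member among them. The size of the difference did not pass a test between states. The interaction from QSC to 1 DPI was -0.24 and that from 1 to 3 DPI -0.78, both at a limma adjusted p of 1.0. No member passed either interaction, against backgrounds of 0.0218% and 0.0%, and 0 and 2 members had an unadjusted p under 0.05. Over all genes 4.32% and 4.53% had such a p. In the young and old table, which the genotypes do not enter, Rab35 stood at 12.4, 11.97 and 12.95 TPM in young QSC and 10.03, 16.4 and 12.5 in old QSC. It stood at 9.17, 17.8 and 4.46 TPM in young and 9.34, 12.8 and 7.88 in old at 1 DPI, and at 16.03, 14.3 and 15.1 in old at 3 DPI. Young and old libraries overlap in both states, and old 3 DPI lies above old 1 DPI without passing (0.57, limma adjusted p = 0.313).

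Genes that act with Rab35 did not pass between genotypes. The exchange factors Dennd1a, Dennd1b and Dennd1c, the GAPs Tbc1d10a, Tbc1d10b and Tbc1d13, and the effectors Micall1, Acap2, Ocrl and Fscn1 were tested, and none was called in any state. The background was 0.213% of all genes in QSC, 0.278% at 1 DPI and 0.283% at 3 DPI. With shares this low, no call is the usual outcome for so few genes. The GAP Tbc1d10a, for example, was at 10.02 ± 0.98 TPM in KO (SD, n = 4) and 12.1 ± 4.67 in control (n = 3) at 3 DPI. Ocrl, a phosphoinositide phosphatase that Rab35 recruits, was at 9.53 ± 0.24 TPM in KO and 5.59 ± 2.43 in control in QSC (n = 3 each, log2 fold change 0.75, limma adjusted p = 0.825). Within 1000000 bases of Rab35, 48 other genes were tested and 0 were called in each of the 3 states, against the same backgrounds. On the mean of the states 2 were called, against a background of 0.452%, both higher in KO. They were Rplp0, a ribosomal protein, at 0.49 (limma adjusted p = 0.00115) and 2210016L21Rik at 0.62 (adjusted p = 0.0423). They were named after their values were seen.

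The other 49 tested members had genotype differences from -0.72 to 0.53 in QSC, -0.56 to 0.79 at 1 DPI and -1.07 to 1.2 at 3 DPI on the log2 scale. The median over all tested members was -0.0009 in QSC, 0.02 at 1 DPI and -0.04 at 3 DPI, beside 0.01, 0.0012 and -0.0036 over all genes. Members with an unadjusted p under 0.05 besides Rab35 were Rab11a in QSC, Rab29 at 1 DPI, and Rab26 and Rab38 at 3 DPI. Over all genes 4.74% had such a p in QSC, 5.25% at 1 DPI and 5.43% at 3 DPI. Rab11a, for instance, was at 137, 152 and 178 TPM in control and 193, 178 and 216 in KO in QSC. None of these 4 came near the threshold after adjustment, with limma adjusted p from 0.802 to 1.0.

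**Figure D2:**
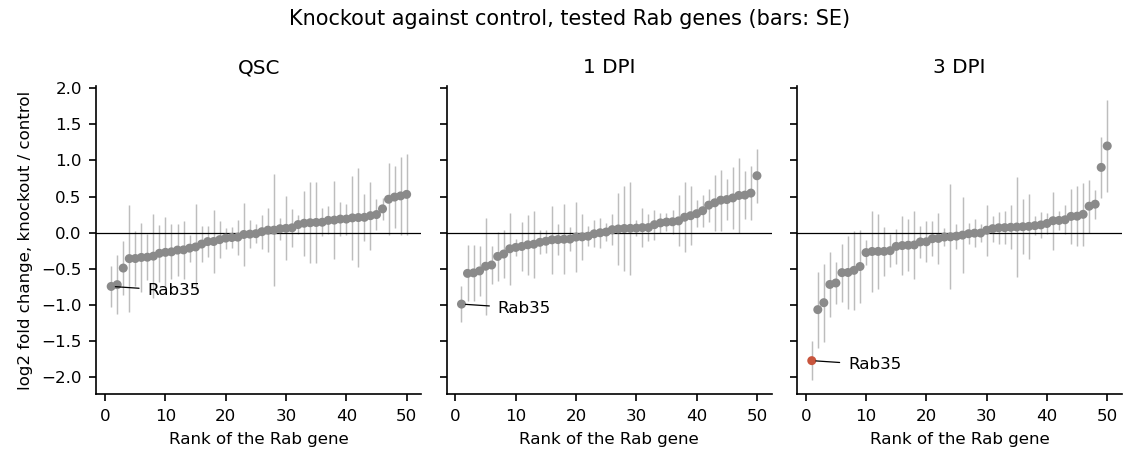
Log2 fold change of KO against control (vertical axis) for the 50 tested members, ranked within each state along the horizontal axis, with bars for the standard error; the coloured point passed the threshold. Rab35 is lowest in each state, at -0.74 in QSC, -0.99 at 1 DPI and -1.77 at 3 DPI.

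After injury, many members changed within a day, in both directions. From QSC to 1 DPI, 17 of 50 members were called in control cells (11 higher, 6 lower), with a background of 35.9% of genes called, 23.3% higher and 12.6% lower. In KO cells 17 of 50 were called (12 higher, 5 lower), with a background of 32.1%, 21.6% higher and 10.6% lower. In young cells 12 of 48 were called (9 higher, 3 lower; background 32.0%, 23.2% and 8.79%), and in old cells 14 of 48 (10 higher, 4 lower; background 32.5%, 24.8% and 7.72%). The members' shares were 34% in control, 34% in KO, 25% in young and 29.2% in old cells, and no test compared them with the shares over all genes.

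These 4 sets share no libraries. Of 47 members tested in all 4, 7 were called higher in every set: Rab1b, Rab2a, Rab34, Rab28, Rab29, Rab8a and Rab4b. The background for this was 14.9% of 16378 genes. Rab9 was called lower in every set, against a background of 3.6%. The 8 make 17.0% of members, beside 18.5% of all genes. The sign was the same in all 4 sets for 31 members, against 61.6% of genes. A further 19 members were called in 1 to 3 sets and 20 in none, and no member was called with opposite signs in different sets.

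The split of higher and lower calls depends on scaling. Median-of-ratios factors moved the median of all genes by -0.22 in control, -0.21 in KO, -0.25 in young and -0.30 in old for this step. Calls were then 7 higher and 13 lower in control, 8 and 11 in KO, 8 and 10 in young, and 7 and 11 in old. The split over all genes turned too, to 3264 higher and 3755 lower in control and 2963 and 3268 in KO of 18304 genes, and to 2766 and 2491 in young and 2952 and 2506 in old cells of 16835. No called member changed sign. Rab8a, Rab1b and Rab28 were still called higher in all 4 sets and Rab9 lower, Rab2a, Rab34, Rab29 and Rab4b were not, and Rab1a, Rab5a, Rab8b, Rab10, Rab14 and Rab18 were called lower in all 4.

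**Figure D3:**
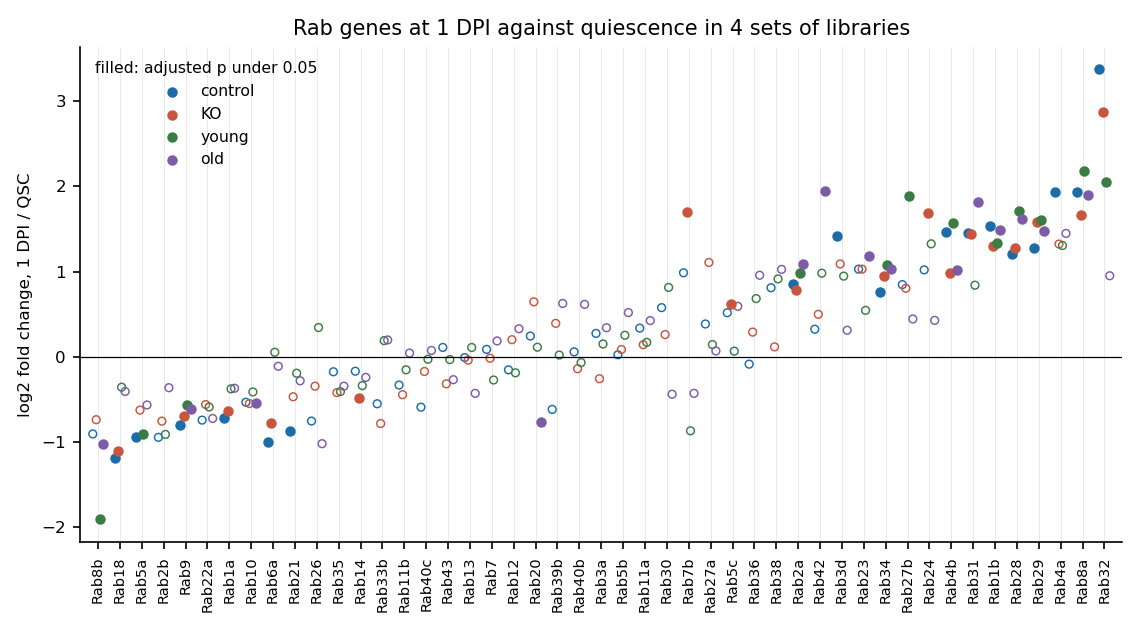
Log2 fold change of 1 DPI against QSC (vertical axis) for the 47 members tested in both tables, ordered by their mean, in control, KO, young and old cells; filled points passed the threshold. Rab8a, at 1.66 to 2.18, and Rab9, at -0.80 to -0.57, have 4 filled points each.

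The members of the endoplasmic reticulum and Golgi split, with 3 called higher and 3 lower of 13 tested in control and in KO, and 3 higher and 0 lower of 12 in young and in old cells. Rab1b, a close relative of Rab1a in transport from the endoplasmic reticulum to the Golgi, held 21.8, 27.7 and 32.03 TPM in control QSC and 87.9, 85.1, 67.8 and 80.6 at 1 DPI. In KO it held 25.7, 27.4 and 37.5 and then 68.3, 92.9, 72.9 and 68.7 TPM, in young 26.6, 37.8 and 39.03 and then 79.3, 77.99 and 107, and in old 26.7, 30.2 and 11.5 and then 77.8, 82.6 and 34.9. The groups do not overlap in any of the 4 sets, and the log2 fold changes were 1.54, 1.3, 1.33 and 1.48 (limma adjusted p = 1.35e-06, 1.41e-05, 0.018 and 0.00953). The call in all 4 sets is lost without replicate 4 of young QSC, without replicate 7 of young 1 DPI, or with no filter on low values.

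Rab1a moved the other way in the control and KO table. It held 328, 384 and 351 TPM in control QSC and 192, 238, 228 and 207 at 1 DPI (-0.71, SE 0.12, limma adjusted p = 9.41e-05), and 356, 357 and 338 and then 185, 279, 229 and 216 TPM in KO (-0.64, adjusted p = 0.000375). In young cells it held 312, 347 and 324 and then 238, 290.2 and 232 TPM and in old cells 269, 304 and 336 and then 259, 209 and 235. Those steps, at -0.38 and -0.37, did not pass although the libraries do not overlap.

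Rab18 and Rab6a, the latter a Rab of the Golgi stacks, fell in control and KO. Rab18 held 346, 412 and 406 TPM in control QSC and 154, 195, 152 and 182 at 1 DPI (-1.19, SE 0.14, limma adjusted p = 9.52e-07), and 369.8, 383 and 349 and then 179, 128, 195 and 189.6 in KO (-1.10, adjusted p = 3.57e-06). Rab6a held 231, 204 and 271 and then 106, 129, 118 and 116 TPM in control (-0.99, adjusted p = 7.3e-06) and 216, 261 and 197 and then 122, 117, 145 and 136 in KO (-0.78, adjusted p = 0.000144). Neither passed in the other table, where Rab18 stood at 365, 269 and 255 TPM in young QSC and 234, 284 and 179.6 at 1 DPI, and Rab6a at 135, 158 and 150.3 and then 158, 171 and 132, with the states overlapping for both. In old cells Rab18 went from 249, 316 and 309.8 to 216, 212 and 227 TPM, with the states apart, and Rab6a from 133, 159 and 196 to 161, 161 and 127, with overlap. The tables were not compared in a test. Rab6a overlaps Mrpl48 on the opposite strand, and no source used here says how the counting treated strand.

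Rab2a, which acts at the Golgi and in lysosome delivery, rose in all 4 sets by 0.78 to 1.09. The call in all 4 is lost without replicate 1 of KO QSC or with a replicate block. Rab2a held 15.4, 17.6 and 10.7 TPM in control QSC and 24.4, 21.2, 39.6 and 24.99 at 1 DPI, and 14.6, 17.4 and 17.5 and then 37.6, 30.9 and 32.3 in young cells. Its relative Rab2b was below 0 in each set, from -0.95 to -0.36, and passed in none. Rab2b is uncertain, because it shares 68.8% of its transcript with Gm43766 and overlaps the coding gene Tox4, both on the opposite strand. Rab34, a Golgi Rab that also serves the cilium, rose from 67.4, 66.1 and 60.05 to 119, 114, 78.8 and 136 TPM in control, and by 0.76 to 1.07 over the 4 sets (limma adjusted p from 0.000717 to 0.00466). Transcripts of Rab34 also share stretches with genes outside the family, for example 148 bases at 95.3% identity with Psmd11. That gene had a mean of 439 TPM in the control and KO table, and the part of shared sequence in the values was not tested.

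Of 5 late endosome and lysosome members tested, 1 was called higher and 1 lower in control, young and old cells, and 3 higher and 1 lower in KO. Rab9, which returns cargo from late endosomes to the trans-Golgi network, fell in all 4 sets. It held 54.1, 68.8 and 56.1 TPM in control QSC and 35.6, 37.2, 39.5 and 24.8 at 1 DPI (-0.80, SE 0.17, limma adjusted p = 0.00115). In KO it held 47.7, 52.7 and 52.8 and then 37.7, 26.3, 34.2 and 27.2 TPM (-0.70, adjusted p = 0.00388), in young 50.7, 51.3 and 50.5 and then 32.6, 38.4 and 31.4 (-0.57, adjusted p = 0.0334), and in old 42.4, 48.5 and 57.7 and then 35.02, 34.6 and 26.8 (-0.61, adjusted p = 0.023). No library of 1 DPI reached those of QSC in any set. In young cells the call is lost when any of 5 of the 6 libraries is left out, with adjusted p up to 0.0999. The call in all 4 sets is also lost without replicate 3 of old QSC or replicate 3 of old 1 DPI. It is lost too with no filter on low values, with the compared groups alone, or with a replicate block. Over all alternatives the limma adjusted p reached 0.224 in young and 0.0943 in old cells.

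Rab29, a partner of the kinase LRRK2, was low and rose in all 4 sets, by 1.28 to 1.61. The call in all 4 is lost without replicate 2 of control QSC or with a replicate block. Rab29 held 3.26, 1.44 and 2.21 TPM in control QSC and 9.48, 6.04, 4.99 and 7.49 at 1 DPI, 4.19, 4.76 and 2.11 and then 7.88, 24.3, 9.78 and 12.8 in KO, and 1.31, 2.48 and 2.602 and then 8.35, 5.96 and 11.6 in young cells. The states do not overlap in any set. The KO library with 24.3 TPM is replicate 2, which has the highest sum of macrophage and monocyte markers, and the part of those cells in the result was not tested. Rab24, known from autophagy, rose in KO from 2.83, 5.93 and 10.5 to 13.5, 19.7, 28.9 and 24.001 TPM (1.69, SE 0.40, limma adjusted p = 0.00286) and did not pass in the other sets, at 0.43 to 1.33. Rab24 is uncertain, because 52% of its transcript is shared with Prelid1 on the opposite strand, which had a mean of 105 TPM.

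Early endosome members also split, with 1 of 7 called higher and 2 lower in control, 2 and 0 in KO, 0 and 1 in young and 1 and 1 in old cells. Rab5a, the Rab that drives early endosome fusion, held 44.9, 38.8 and 51.6 TPM in control QSC and 19.97, 18.2, 33.2 and 22.6 at 1 DPI (-0.94, SE 0.24, limma adjusted p = 0.00483). In young cells it held 49.3, 44.5 and 53.8 and then 32.2, 20.7 and 25.8 TPM (-0.90, adjusted p = 0.00443), and in KO and old cells the steps of -0.63 and -0.57 did not pass. Its relative Rab5c was above 0 in each set and passed in KO, at 0.62 (adjusted p = 0.0429). Rab21, which carries integrins, fell in control from 14.2, 16.1 and 13.4 to 5.18, 7.498, 8.34 and 9.66 TPM (-0.87, adjusted p = 0.00782) and did not pass in the other sets.

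Rab31, which moves cargo between the trans-Golgi network and endosomes, rose in control, KO and old cells. It held 28.4, 17.1 and 21.3 TPM in control QSC and 70.4, 60.9, 53.9 and 61.8 at 1 DPI (1.46, SE 0.18, limma adjusted p = 2.45e-06). In old cells it held 5.06, 20.7 and 13.3 and then 53.2, 38.5 and 37.6 TPM (1.82, SE 0.35, adjusted p = 0.001). In young cells it held 35.9, 33.5 and 27.1 and then 52.5, 55.7 and 66.7 TPM, apart in every library, but the step of 0.84 did not pass.

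Of the members for recycling and surface delivery, 3 of 11 tested were called higher and 0 lower in control, 2 and 1 in KO, and 2 and 1 of 12 in young and 2 and 2 in old cells. They include Rab8a, the member with the smallest adjusted p of this step in each set. Rab8a, which carries vesicles from the Golgi and recycling endosomes to the plasma membrane and the cilium, held 32.2, 30.7 and 19.2 TPM in control QSC and 91.2, 78.99, 130.2 and 127 at 1 DPI. In KO it held 27.2, 35.2 and 34.01 and then 87.6, 128, 86.8 and 117 TPM, in young 18.3, 26.1 and 31.3 and then 115, 107 and 125, and in old 31.6, 34.7 and 30.1 and then 108, 123 and 139. Every library of 1 DPI lay above every library of QSC, and the log2 fold changes were 1.93, 1.66, 2.18 and 1.90 (limma adjusted p = 3.11e-07, 2.97e-06, 7.16e-06 and 1.73e-05).

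Rab8b, its close relative, went down in the wild-type cells. It held 107, 105 and 99.01 TPM in young QSC and 29.7, 31.5 and 20.9 at 1 DPI (-1.91, SE 0.23, limma adjusted p = 2.67e-05), and 43.4, 71.4 and 64.6 and then 28.7, 36.04 and 21.9 in old cells (-1.02, adjusted p = 0.00316). In control it held 88.6, 85.5 and 72.995 and then 51.6, 46.5, 57.6 and 25.4 TPM, and in KO 64.6, 67.2 and 59.8 and then 35.6, 100.3, 22.2 and 25.5. Those steps, at -0.91 and -0.74, did not pass, and the states overlap in KO but not in control. The KO library with 100.3 TPM at 1 DPI is replicate 2, with the highest macrophage and monocyte sum, and its part was not tested. Rab8b also shares 279 identical bases, 5.89% of its transcript, with the processed pseudogene Gm20689. That pseudogene had a mean of 37.2 TPM in the control and KO table, and its part in the values was not tested.

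Rab4b, of fast recycling from early endosomes, rose in all 4 sets by 0.98 to 1.58. The call in all 4 sets is lost without replicate 1 or 3 of KO QSC, replicate 2 or 3 of old QSC, or replicate 1 of old 1 DPI. Rab4b shares 93.3% of its transcript with the coding gene Gm21983 on its own strand, which had a mean of 0.211 TPM in the control and KO table. It held 20.3, 18.6 and 11.5 TPM in control QSC and 43.7, 43.001, 69.2 and 37.1 at 1 DPI, 9.95, 28.7 and 11.2 and then 43.5, 50.2 and 45.04 in young cells, and 22.3, 20.5 and 20.1 and then 57.1, 38.95 and 37.01 in old cells. Rab4a, its relative, was low, at 2.12, 0 and 1.01 and then 4.15, 9.65, 3.12 and 9.78 TPM in control (1.93, SE 0.51, limma adjusted p = 0.00526), and did not pass in the other sets, at 1.31 to 1.45. It overlaps the coding gene Gm20388 on its own strand, with a mean of 10.5 TPM, so its counts are uncertain. Rab14 passed in KO (-0.49, adjusted p = 0.00524) and Rab10, which delivers the glucose transporter GLUT4, in old cells, from 30.5, 44.1 and 40.3 to 25.3, 28.9 and 23.02 TPM (-0.54, adjusted p = 0.0338), where 4 of 6 left-out libraries end the call. Rab11a and Rab11b, Rab12, Rab13 and Rab22a, which serves early endosomes, passed in none of the 4 sets.

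Of the members for regulated secretion, 2 of 9 tested were called higher in control, 1 in KO, 2 of 7 in young and 0 in old cells, and none lower. Rab27b passed in young cells, from 0.0228, 1.003 and 0.356 to 4.45, 5.42 and 3.06 TPM (1.89, limma adjusted p = 0.00379), and Rab3d, of exocytic granules, in control, from 0.872, 1.62 and 0.692 to 8.81, 3.85, 1.32 and 6.91 (1.42, adjusted p = 0.0329). Rab32 rose in young cells from 0.0558, 0.0552 and 0.0545 to 6.65, 2.24 and 2.39 TPM (2.05, SE 0.48, adjusted p = 0.00439), and its rise in control and KO is described with its later fall. These young QSC values of Rab32, and the 0.0228 TPM of Rab27b, lie near the floor of a table in which no value is 0.

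Of the 5 members of the cilium and other tasks, 1 was called higher in control, KO and young cells and 3 in old cells, and none lower. Rab28, found at the base of cilia, rose in all 4 sets. It held 23.9, 16.1 and 24.5 TPM in control QSC and 57.9, 43.6, 41.5 and 59.6 at 1 DPI, 14.9, 23.2 and 21.6 and then 63.2, 73.8 and 63.2 in young, and 23.2, 20.1 and 15.3 and then 66.2, 69.1 and 49.5 in old cells. The log2 fold changes were 1.2 in control, 1.28 in KO, 1.71 in young and 1.61 in old (limma adjusted p from 5.63e-05 to 0.00155). Rab23, a brake on Hedgehog signalling, and Rab42 passed in old cells, at 1.18 and 1.95.

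Ratios of related members show how they move relative to each other within a library and hardly depend on scaling. A ratio also changes when a single member moves, so it does not show opposite movement by itself. Rab2b, for instance, passed in no set and Rab5c in KO only. All 12 pairs with 1 number and both members tested in both tables were computed after the levels had been seen, so they are a description with no test. In the young and old table a ratio can be read between states and not as a level, so ratios are given for the control and KO table and changes for all sets. Rab8a was below Rab8b in every control and KO library of QSC, at a ratio of TPM of 0.263 to 0.569, and above it in every one of 1 DPI, at 1.28 to 5.01. The log2 ratio changed by 2.84 in control, 2.40 in KO, 4.09 in young and 2.92 in old cells, with the limit on Rab8b given above. Rab1a exceeded Rab1b 9.01 to 15.1 times in QSC and 2.18 to 3.36 times at 1 DPI. That log2 ratio changed by -2.25 in control, -1.94 in KO, -1.71 in young and -1.85 in old cells.

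Rab2a to Rab2b went from 0.505 to 2.16 in QSC to 2.13 to 7.63 at 1 DPI in control and KO, with a mean change over the 4 sets of 1.67, and within each set the states did not overlap. Rab5a to Rab5c went from 0.872 to 1.78 in QSC to 0.218 to 0.853 at 1 DPI in control and KO, with a mean change of -1.21, also without overlap within a set. Rab5a to Rab5b changed by -0.98 and Rab11a to Rab11b by 0.49 on average, with the states apart in 2 of 4 sets each. The other 6 pairs, Rab3a and Rab3d, Rab4a and Rab4b, Rab5b and Rab5c, Rab7 and Rab7b, Rab27a and Rab27b, and Rab40b and Rab40c, had mean changes of -0.82 to 0.30 and were apart in at most 1 set.

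**Figure D4:**
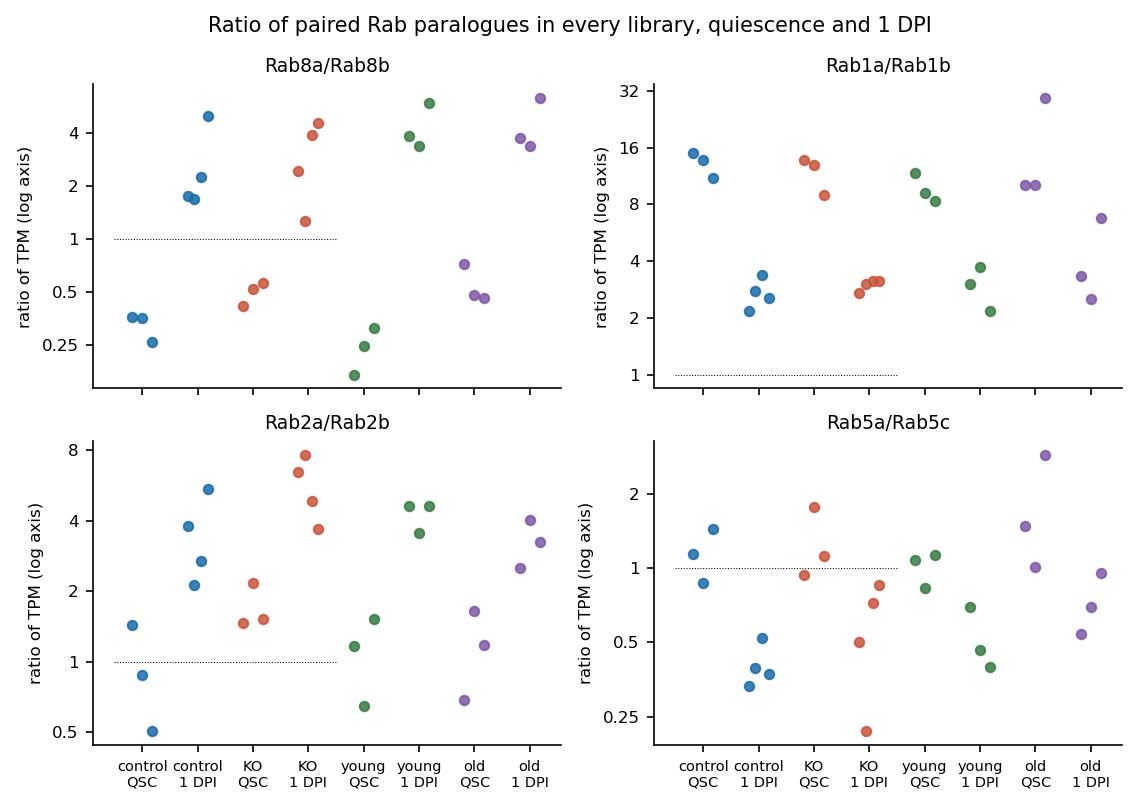
Ratio of TPM (log axis) of Rab8a to Rab8b, Rab1a to Rab1b, Rab2a to Rab2b and Rab5a to Rab5c in each library of QSC and 1 DPI; points are libraries, and the dotted line is a ratio of 1, drawn for control and KO, where it can be read as a level. Rab8a to Rab8b goes from 0.263 to 0.569 in QSC to 1.28 to 5.01 at 1 DPI in control and KO.

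From 1 to 3 DPI fewer members were called. Rab20, Rab32, Rab7b, Rab31 and Rab40b were called with 1 sign in both control and KO, and the share of all genes so called was not computed. In control cells 7 of 50 were called (3 higher, 4 lower; background 13.3%, 5.09% and 8.25%), in KO 13 of 50 (5 higher, 8 lower; background 18.9%, 6.8% and 12.1%), and in old cells 8 of 48 (2 higher, 6 lower; background 17.5%, 5.74% and 11.8%). Under median-of-ratios scaling, which moved the median of all genes in old cells by 0.20, the split was 6 higher and 2 lower in old cells, 4 and 2 in control and 5 and 7 in KO. Over all genes it was then 1289 higher and 1117 lower in old cells, 1186 and 1306 in control, and 1430 and 2041 in KO. Without replicate 2 of KO at 1 DPI, 7 members were called in KO. Leaving out 1 library gave 3 or 4 calls in control for 4 of the 7 libraries.

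Rab20, which works on phagosomes and early endosomes, showed the largest fall of this step. It held 85.3, 54.9, 108 and 59.7 TPM in control at 1 DPI and 3.82, 7.03 and 10.6 at 3 DPI (-3.30, SE 0.38, limma adjusted p = 7.15e-06), and 68.8, 173, 71.2 and 56.3 and then 13.8, 4.47, 5.32 and 7.45 in KO (-3.38, SE 0.35, adjusted p = 1.71e-06). In old cells it held 56.5, 80.6 and 65.1 TPM in QSC, 40.1, 39.8 and 36.5 at 1 DPI (-0.77, adjusted p = 0.0479, a call that 5 of the 6 left-out libraries end) and 16.99, 26.5 and 37.9 at 3 DPI (-0.57, not passed). In QSC, where macrophage and monocyte markers summed to 58.6 to 131 TPM, Rab20 was at 55.5, 57.7 and 76.2 in control and 48.9, 63.3 and 47.6 in KO, well above 3 DPI, where they summed to 130 to 455 TPM. At 1 DPI the libraries with the most Rab20, KO replicate 2 at 173 TPM and control replicates 3 and 1 at 108 and 85.3, had the highest marker sums of their groups, 10850, 5664 and 3699 TPM. Control replicates 2 and 4, at 54.9 and 59.7 TPM of Rab20, had sums of 1157 and 492. The part of such cells in the fall was not tested.

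Rab32, which serves lysosome-related organelles and mitochondria, and Rab7b, a late endosome Rab that is abundant in macrophages, were highest at 1 DPI in the control and KO libraries with high marker sums. In QSC Rab32 was at 0.623, 0 and 0 TPM in control and 0.535, 0 and 0.136 in KO. At 1 DPI it was at 18.99, 7.14, 27.7 and 3.696 TPM in control (3.37, SE 0.73, limma adjusted p = 0.00105) and 5.06, 47.6, 3.26 and 3.82 in KO (2.87, adjusted p = 0.00455), and at 3 DPI at 1.52, 1.95 and 0.232 in control (-2.54, adjusted p = 0.0247) and 2.91, 0, 1.16 and 0.922 in KO (-2.13, adjusted p = 0.0321). The control libraries with the most Rab32 at 1 DPI, replicates 3 and 1, and KO replicate 2 are those with the highest macrophage and monocyte sums of their groups. The fall in control is lost without any 1 of 4 libraries, and in KO without replicate 2 at 1 DPI (-1.31, adjusted p = 0.109) or without any 1 of 3 libraries of 3 DPI. The part of such cells in the result was not tested.

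Rab7b was at 13.8, 13.9 and 10.6 TPM in control QSC, 43.3, 12.4, 57.6 and 14.6 at 1 DPI and 9.805, 5.96 and 6.03 at 3 DPI, and at 13.4, 12.4 and 7.79, then 30.5, 129.7, 31.1 and 16.1, then 7.504, 9.29, 4.01 and 3.74 in KO. The rise passed in KO (1.7, SE 0.56, limma adjusted p = 0.0247) and is lost without replicate 2 at 1 DPI (1.12, adjusted p = 0.084) or without replicate 3 of QSC. The fall to 3 DPI was -1.75 in control (adjusted p = 0.0443), lost without any 1 of 5 libraries, and -2.52 in KO (adjusted p = 0.00194). In young cells, where the marker sum went from 39.3 to 97.2 TPM in QSC to 220 to 967 at 1 DPI, Rab7b went from 10.3, 18.1 and 14.1 to 10.6, 8.63 and 3.78 TPM (-0.87, not passed). From QSC to 1 DPI in old cells it went from 13.003, 15.2 and 42.2 to 13.4, 27.96 and 8.64 TPM (-0.43, not passed). In old cells after that, where the marker sum went from 240 to 848 TPM at 1 DPI up to 7531 to 8752 at 3 DPI, Rab7b rose from 13.4, 27.96 and 8.64 to 41.02, 51.002 and 40.8 TPM (1.50, SE 0.47, adjusted p = 0.0427), a call that 5 of the 6 left-out libraries end. Rab32 in old cells went from 5.65, 4.16 and 5.88 to 3.47, 10.7 and 9.75 TPM and did not pass. In bulk samples, fewer cells of a type and less RNA per cell cannot be told apart.

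**Figure D5:**
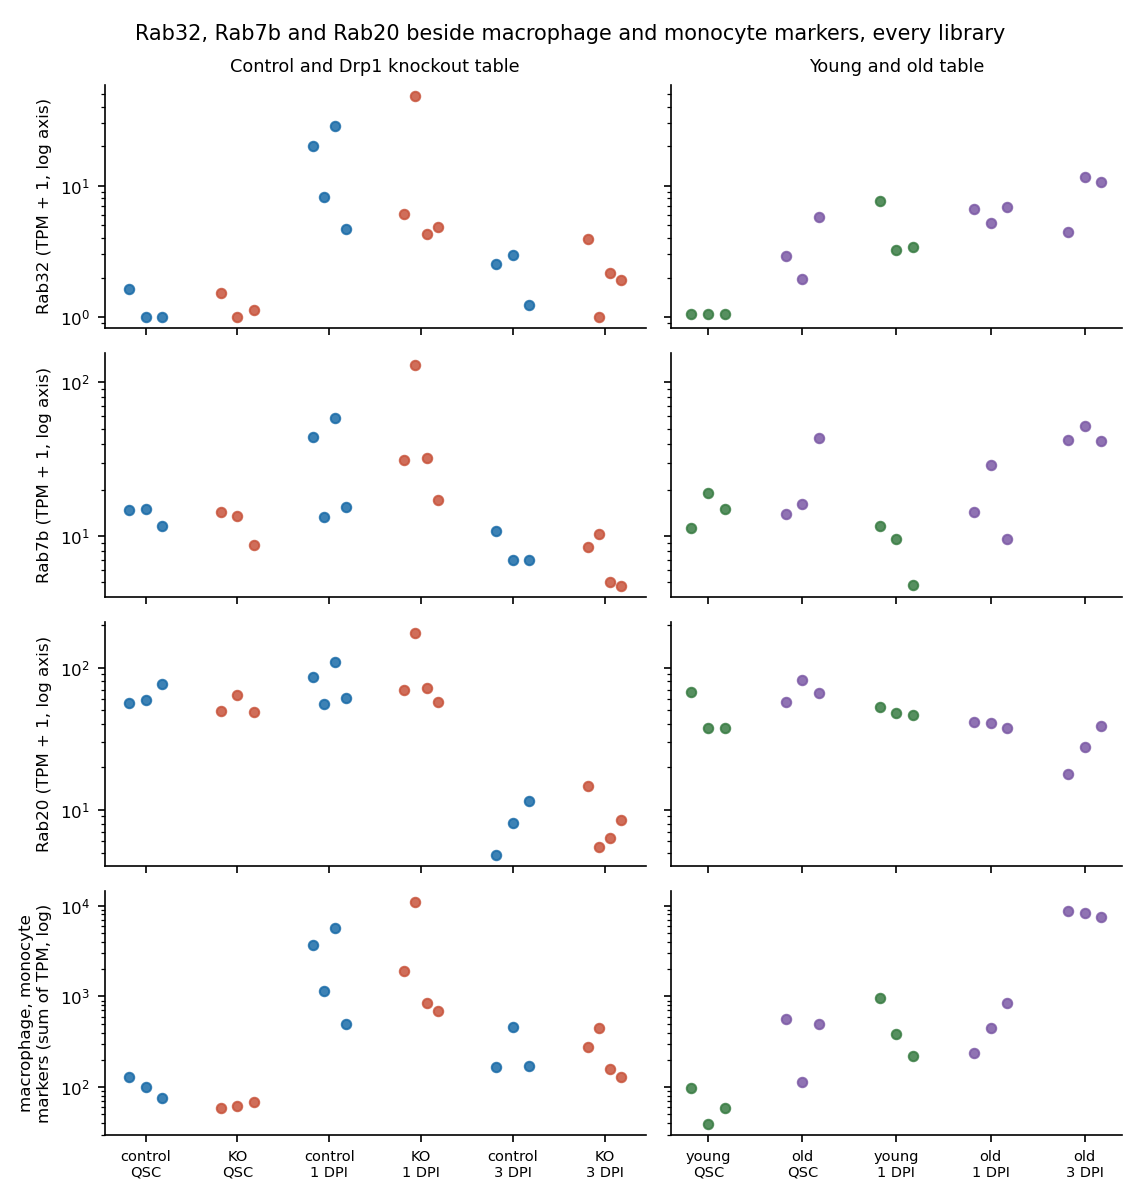
Rab32, Rab7b and Rab20 as TPM + 1 and the summed TPM of 17 macrophage and monocyte markers (all on log axes) in each library, with the control and KO table on the left and the young and old table on the right. In old cells Rab7b is at 40.8 to 51.0 TPM and the markers at 7531 to 8752 TPM at 3 DPI, and in control and KO cells at 3 DPI they are at 3.74 to 9.8 and 130 to 455 TPM; levels are compared within a table only.

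Members that rose to 3 DPI were Rab31 and Rab40b in both genotypes. Rab31 reached 103, 129 and 130.05 TPM in control (0.95, SE 0.18, limma adjusted p = 0.00127) and went from 53.5, 86.3, 70.1 and 67.4 to 133, 137, 111 and 119 in KO (0.85, SE 0.17, adjusted p = 0.00129). Rab40b, an adaptor of a ubiquitin ligase, went from 1.58, 1.01, 0 and 1.02 to 6.32, 6.08 and 5.08 TPM in control (1.92, SE 0.53, adjusted p = 0.0194) and from 2.39, 0, 0 and 1.604 to 10.9, 1.16, 7.32 and 8.14 in KO (1.95, SE 0.49, adjusted p = 0.00827). The KO states overlap, since replicate 2 at 3 DPI held 1.16 TPM, and the control states do not. The control call is lost without replicate 3 at 1 DPI, without replicate 1 or 2 at 3 DPI, or with a pseudocount of 0.1 (adjusted p = 0.0795), and the KO call when those groups alone enter the fit (adjusted p = 0.0613).

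Other calls at 3 DPI were in 1 genotype. Rab27b, a Rab of secretory granules and exosomes, rose in KO from 1.35, 1.75, 1.23 and 0.944 to 5.49, 4.68, 5.91 and 3.99 TPM (1.38, SE 0.34, limma adjusted p = 0.00756). Rab2b rose in KO from 4.65, 3.35, 6.99 and 7.42 to 19.3, 16.9, 6.08 and 13.4 TPM (1.12, adjusted p = 0.0306), with overlapping states and a call that 5 of the 8 left-out libraries end. Rab29 fell in KO to 2.84, 3.56, 7.19 and 3.95 TPM (-1.39, adjusted p = 0.0125). Rab8b, Rab27a, Rab33a and Rab43 were also called lower in KO, at -1.69 to -0.93, and Rab38, of lysosome-related organelles, higher at 1.16. Rab43 is uncertain, because it overlaps the coding gene Gm45140 on its own strand.

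Rab24 rose in control from 20.9, 10.9, 14.2 and 11.5 to 22.8, 55.5 and 44.9 TPM (1.41, SE 0.40, limma adjusted p = 0.0247), with the limit on its shared transcript given above, and 4 of 7 left-out libraries end that call. Rab7 fell in control from 340.3, 305, 399 and 276 to 225, 259 and 213 TPM (-0.50, SE 0.14, adjusted p = 0.0277), a call lost without any 1 of 4 libraries. None of these differed in a test between genotypes, as no interaction passed.

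In old cells from 1 to 3 DPI, of the 8 called members Rab7b was also called in control and KO, with the opposite sign, and the others were called in neither. Rab30, a Golgi Rab, rose from 1.67, 1.08 and 2.16 to 10.8, 8.69 and 15.1 TPM (2.24, SE 0.42, limma adjusted p = 0.00253). Rab28 fell from 66.2, 69.1 and 49.5 to 13.5, 39.2 and 33.8 TPM (-1.19, adjusted p = 0.0224) and Rab34 from 129.6, 108 and 121 to 62.5, 84.8 and 50.1 (-0.88, SE 0.19, adjusted p = 0.0067). Rab33b, a Golgi Rab that recruits an autophagy protein complex, fell from 13.2, 13.8 and 13.8 to 4.69, 7.48 and 8.24 TPM (-0.93, adjusted p = 0.029) and Rab23 from 10.8, 14.9 and 10.2 to 2.72, 7.73 and 4.38 (-1.2, adjusted p = 0.0467). Rab18 and Rab42 were also lower.

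In the same libraries Schwann cell markers, summed over 5 genes, stood at 95.1 to 134 TPM at 3 DPI against 7.79 to 10.3 at 1 DPI, and erythroid markers at 789 to 1211 against 3.58 to 102. The part of other cells in these falls was not tested. The calls of Rab23, Rab28 and Rab33b are lost under median-of-ratios scaling, and each is lost when any of several libraries is left out. Those of Rab30 and Rab34 were kept under every alternative run. A young group at 3 DPI was not analysed here.

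Between ages, no member was called by limma. In QSC 0 of 48 passed, against a background of 0.726%, and 6 had an unadjusted p under 0.05, as had 14.1% of all genes. At 1 DPI 0 of 48 passed, against 0.142%, and 2 had such a p, as had 7.08% of all genes. For the interaction of age and the step from QSC to 1 DPI the counts were 0 and 4, against 0.0118% and 8.83% of all genes. The smallest adjusted p in QSC was that of Rab31, which held 35.9, 33.5 and 27.1 TPM in young and 5.06, 20.7 and 13.3 in old cells, apart in every library (-1.42, SE 0.35, limma adjusted p = 0.0726). The lowest value, 5.06 TPM, is that of old QSC replicate 1, the library with 4639 TPM of neutrophil markers, whose part was not tested. Without replicate 2 of old QSC Rab31 is called, with no filter on low values Rab31, Rab8b, Rab26 and Rab32 are, where 26431 of 55471 genes are called, and with a pseudocount of 0.1 or none Rab32 is.

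The 5 other members with an unadjusted p under 0.05 in QSC were Rab8b, Rab5c, Rab7, Rab32 and Rab26. Rab8b was lower in old QSC, at 59.8 ± 14.6 TPM (SD, n = 3) against 104 ± 4.36 (-0.82, limma adjusted p = 0.113), with its lowest value, 43.4 TPM, also in replicate 1, as were Rab5c (-0.86, adjusted p = 0.285) and Rab7 (-0.41, adjusted p = 0.341). Rab32 was above the young libraries, at 1.89, 0.947 and 4.802 TPM against 0.0558, 0.0552 and 0.0545 (1.60, adjusted p = 0.133), as was Rab26 (1.29, adjusted p = 0.201), whose gene overlaps Traf7 and Rab26os. The young values of Rab32 lie near the floor of this table, in which no value is 0. The old QSC library with 4.80 TPM of Rab32, replicate 3, also held 42.2 TPM of Rab7b and a macrophage and monocyte sum of 499.6 TPM, and the part of such cells was not tested. None of these differences passed.

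The machinery that loads, unloads and reads Rabs was counted from lists of 9 genes for GDI, escort and prenylation, 37 GEFs, 38 GAPs and 57 effectors. None of them was called between genotypes in any state or between ages. The backgrounds were 0.213% to 0.283% of genes between genotypes. Between ages they were 0.726% in QSC and 0.142% at 1 DPI. From QSC to 1 DPI in control, 3 of 9 tested prenylation and GDI genes rose and 2 fell, 6 of 36 GEFs rose and 6 fell, 9 of 36 GAPs rose and 3 fell, and 11 of 48 effectors rose and 5 fell. In KO the counts were 3 and 1, 5 and 7, 6 and 2, and 9 and 1. In young cells they were 3 and 1 of 9, 5 and 6 of 34, 6 and 3 of 33, and 8 and 2 of 47, and in old cells 5 and 1, 7 and 5, 8 and 1, and 9 and 1. Over all genes, 23.3% were called higher and 12.6% lower in control, and 21.6% and 10.6% in KO. The shares were 23.2% and 8.79% in young and 24.8% and 7.72% in old cells. No test compared the lists with these shares.

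Rabggta, Pde6d, Tbc1d10a and Tbc1d31 of these lists were called in all 4 sets, where the background was 18.5% of all genes. How many genes of the lists were so called was not counted. Rabggta, the alpha subunit of the transferase that prenylates Rabs, went from 8.71 ± 2.02 to 27.9 ± 7.44 TPM in control (SD, n = 3 and 4; log2 fold change 1.56, limma adjusted p = 6.69e-06), and by 1.31 to 2.19 over the 4 sets. Pde6d, a carrier of prenylated proteins, rose by 1.22 to 1.91. Tbc1d10a, the GAP of Rab35 and Rab27, went from 60.1 ± 5.04 to 17.4 ± 4.30 TPM in control (-1.76, adjusted p = 1.25e-05) and fell by 1.50 to 1.89 over the sets. Tbc1d31, of the centriolar satellites, rose by 1.85 to 2.75. Rab3gap1, an exchange factor for Rab18, is given for control only, where it fell from 65.4 ± 12.3 to 20.0 ± 4.78 TPM (-1.67, limma adjusted p = 2.82e-06).

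From 1 to 3 DPI the machinery had fewer calls, as had all genes. The share of all genes called was 13.3% in control and 18.9% in KO, against 35.9% and 32.1% in the step before. Dennd4a, an exchange factor of Rab10, fell in control from 18.1 ± 5.04 (n = 4) to 5.25 ± 2.20 TPM (SD, n = 3; -1.64, limma adjusted p = 0.00823) and in KO from 23.8 ± 14.7 to 3.31 ± 1.27 TPM (n = 4 each; -2.38, adjusted p = 0.000126). Eea1, the Rab5 effector that tethers early endosomes, fell in control from 34.0 ± 8.61 to 12.3 ± 4.40 TPM (-1.43, adjusted p = 0.000368). Madd, an exchange factor of Rab3 and Rab27, rose in control from 20.5 ± 12.2 to 40.2 ± 4.51 TPM (1.09, adjusted p = 0.045).

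Sequence shared between genes could move some of these values. No pair of members shares a stretch of at least 100 bases at 95% identity in GENCODE M21 transcripts. Such a stretch is shared with some gene outside the family by 28 members, and 32 members overlap another gene, 21 of them 1 on the opposite strand. For Rab35 the 1 overlapping gene is Mir7030, which was at 0 in the control and KO table.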

How the data were processed

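Bulk RNA-seq of sorted satellite cells was analysed from 2 tables of TPM, which the authors made with RSEM 1.3.1 on GRCm38 after CASAVA 1.8.2 and cutadapt 1.7.1, per the submitters' processing notes. No source used here names the aligner. The labels' protocols name PicoPure RNA extraction and 2 library protocols, 1 for low input and 1 directional, without saying which library had which. The deposited TPM were used as they stand, and each library sums to 1000000. In the table of young and old mice no value is 0, and values carry an added constant and a per-gene scale that the labels do not describe, so levels are compared within a table. Genes at 1 TPM or more numbered 12325 to 14969 per library in the control and KO table and 12958 to 14636 in the other. Depth is unknown, so no counting error can be given.

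A gene was kept in a table if 3 or more libraries had 1 TPM or more, and log2(TPM + 1) was fitted with limma 3.58.1 (R 4.3.3, trended empirical Bayes), all groups of a table in 1 fit. P-values were adjusted by Benjamini-Hochberg over all genes tested, with a threshold of 0.05. A fold change on this scale understates the change of low genes. The fit was tested on simulated data. Replicate numbers were taken from the labels and did not pair the libraries, and no 2 libraries were identical.

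The members and the lists of roles, machinery and markers were chosen with earlier results of these data known. Values in every library are given for Rab35, for members called between genotypes or ages, for up to 4 called members per direction and injury step with the largest change and 5 TPM or more as the mean of the higher group, and for the 5 most abundant members. Machinery genes were named by the largest change, up to 2 per direction, list and step, or as partners of Rab35. Alternatives were a pseudocount of 0.1 or none where the values allow it, no filter or a filter at 5 TPM, median-of-ratios scaling, array weights, a fit of the compared groups alone, a replicate block, and leaving out each library. The mean of the 3 states, the calls shared by the 4 sets and the ratios of related members were added after the data were seen. Shared transcript sequence was found with BLAST 2.17.0, promoters came from RefSeq, and tables and plots were made with Python 3.11.15, numpy 2.4.6, pandas 2.3.3 and matplotlib 3.10.9.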

Additional observations from a re-analysis of the deposited data

Results flagged for a closer look

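Among 84 combinations of a member and a group of 4 libraries, taken over 3 such groups, 5 held a library far from the other 3, and chance gives about 1 in 20. Replicate 2 of KO at 1 DPI held 47.6 TPM of Rab32, against 3.26 to 5.06 in the others, and 424 TPM of Rab7, against 278 to 295. It also has the highest macrophage and monocyte sum, 10850 TPM, whose part in these values was not tested. Replicate 3 of control at 1 DPI held 0.822 TPM of Rab30, against 5.54 to 6.79. Replicate 3 of KO at 3 DPI is listed at 0.0 TPM of Rab33b, against 5.65 to 8.61. Replicate 4 of KO at 3 DPI held 150.4 TPM of Rab8a, against 122 to 123.

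Rab7b moved in opposite directions from 1 to 3 DPI, by -1.75 in control and -2.52 in KO on the log2 scale and by 1.50 in old cells. The difference was not tested, because the groups stand in separate tables. Macrophage and monocyte markers also moved in opposite directions, from 492 to 10850 down to 130 to 455 TPM in control and KO and from 240 to 848 up to 7531 to 8752 TPM in old cells, and their part was not tested.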

How the results depend on the processing

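No fold change or ratio followed across the alternatives changed sign under any of them. The split of higher and lower calls did depend on scaling, as described for each step. Members called in all 4 sets from QSC to 1 DPI went from 7 higher and 1 lower to 3 and 7 under median-of-ratios scaling. For Rab members called between genotypes at 3 DPI, the count of 1 became 0 when the compared groups alone entered the fit. For control from 1 to 3 DPI, the 7 calls became 4 with no filter and 3 to 7 leaving out a library. For KO from 1 to 3 DPI, the 13 became 8 with no filter, 6 with the compared groups alone and 7 to 13 leaving out a library. Between ages in QSC, the 0 became 1 with a pseudocount of 0.1, 1 with none, 4 with no filter, where 26431 of all 55471 genes were called, and 0 to 1 leaving out a library. For young cells from QSC to 1 DPI, the 12 became 22 with array weights, where 7365 of 16949 genes were called against 5424. For old cells from 1 to 3 DPI, the 8 became 14 with no filter, where 29302 of 55471 genes were called against 2974 of 16949, 5 with the compared groups alone and 4 to 7 leaving out a library. The cause was not tested, beyond the smaller number of samples or the larger number of genes that some alternatives have by construction.

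Same-numbered libraries had correlations of their deviations from -0.212 to 0.192, so the numbers were not taken to pair the samples. With a replicate block the calls from QSC to 1 DPI were 18 in control, 18 in KO, 7 in young and 13 in old cells, those from 1 to 3 DPI 8, 13 and 4 in control, KO and old, and those with 1 sign in all 4 sets 5 in place of 8. Without counts, the counting error of members at low TPM is unknown.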
